A study of Mus musculus with 4 samples.

Results

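H3K36me3 regions that lay wholly inside introns were described in mouse embryonic stem (ES) cells. A region was taken as intronic if it lay on an autosome, was at most 5000 bp wide, overlapped a protein-coding gene, touched no exon of any gene and was more than 1 kb from the start of every protein-coding gene. Of the 31593 regions in the H3K36me3 list, 10040 met these conditions (31.8%, 95% Wilson interval 31.3 to 32.3), and they covered 9.22 Mb. They lay in 3690 of the 21418 autosomal protein-coding genes (17.2%). For comparison, 18587 regions of the same list and the same width limit, also away from gene starts, touched an exon of a protein-coding gene and are referred to as exon-touching.

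The study profiled H3K36me3 and H3K9me3 by chromatin immunoprecipitation and sequencing (ChIP-seq) in WT ES cells and in Targeted H3.3 G34R ES cells, giving 4 libraries, 1 for every pairing of cells and mark. Both cell types were of strain 129S1/SvImJ at passages < 20, grown with foetal calf serum and leukaemia inhibitory factor, and both kept H3f3b, the other gene for histone H3.3, in its wild-type form. The G34R cells were heterozygous at H3f3a. After excision of a wild-type cassette by Cre, 1 allele expressed a minigene with glycine 34 of H3.3 replaced by arginine from the endogenous H3f3a promoter, and the mutant lines were clonal. The list for each mark pooled WT and G34R cells and held positions without read values, so no difference between the cell types is given, the depth is unknown and there were no replicates. The files held no expression values against which the identity of the cells could be checked. Intervals cover counting error over regions or bins, which are not independent of their neighbours, and no p-value was computed.

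H3K36me3 is the trimethylated form of lysine 36 of histone H3. It is deposited by SETD2, which travels with elongating RNA polymerase II, and therefore marks the bodies of transcribed genes, usually with more signal towards the 3′ end and over exons. It is read by proteins such as DNMT3B, PSIP1 and MSH6. H3K9me3, in contrast, is known for heterochromatin, silenced transposable elements and zinc finger gene clusters, and enzymes of the KDM4 family can remove both marks. The distance of the intronic regions from exons, their place in the gene and intron, their base composition and their overlap with H3K9me3 were therefore described.

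The regions spanned a wide range of sequence, and 5 are shown to illustrate its extremes. Each is the central 200 bases of a region, read 5′ to 3′ on the strand of its gene from the NCBIM37 assembly (mm9), with CG dinucleotides in capitals. Mdga2, encoding a neural cell adhesion protein, held the region farthest from any exon. Nuf2, a kinetochore gene, and Cdkn1a, the gene for the cell cycle inhibitor p21, held the regions with the highest G+C content. Hat1, encoding a histone acetyltransferase of newly made H4, and Rictor, a subunit of mTOR complex 2, held those with the lowest.
Mdga2, chr12:68160301-68160500, minus strand: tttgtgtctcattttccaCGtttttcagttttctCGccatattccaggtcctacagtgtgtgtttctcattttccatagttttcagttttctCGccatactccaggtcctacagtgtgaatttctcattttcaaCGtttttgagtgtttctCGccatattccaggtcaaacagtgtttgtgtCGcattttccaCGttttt
Nuf2, chr1:171448001-171448200, minus strand: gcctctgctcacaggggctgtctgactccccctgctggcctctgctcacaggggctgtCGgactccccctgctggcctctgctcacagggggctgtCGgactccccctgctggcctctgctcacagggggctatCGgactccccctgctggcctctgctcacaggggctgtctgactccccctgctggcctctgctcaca
Cdkn1a, chr17:29231501-29231700, plus strand: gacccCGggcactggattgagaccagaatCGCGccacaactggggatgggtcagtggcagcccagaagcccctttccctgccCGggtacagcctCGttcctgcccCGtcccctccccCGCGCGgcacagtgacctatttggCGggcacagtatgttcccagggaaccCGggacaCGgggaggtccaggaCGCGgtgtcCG
Hat1, chr2:71263501-71263700, plus strand: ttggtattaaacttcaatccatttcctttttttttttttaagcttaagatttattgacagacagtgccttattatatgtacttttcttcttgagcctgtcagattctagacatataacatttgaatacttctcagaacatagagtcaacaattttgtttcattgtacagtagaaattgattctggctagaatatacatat
Rictor, chr15:6731201-6731400, plus strand: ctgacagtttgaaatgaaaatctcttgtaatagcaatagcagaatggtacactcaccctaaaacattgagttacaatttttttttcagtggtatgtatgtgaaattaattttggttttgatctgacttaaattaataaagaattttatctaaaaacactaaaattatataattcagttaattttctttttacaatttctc

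The printed Cdkn1a bases held 15 CG dinucleotides and those of Mdga2 held 7, compared with 0 in both Hat1 and Rictor. The Nuf2 and Mdga2 sequences repeated themselves. In Nuf2, 67.2% of bases were the same as the base 75 positions further on, and in Mdga2 63.4% were the same as the base 58 positions on. The highest such share at any lag from 10 to 100 bases was 36.7% in Hat1 and 39.1% in Rictor. The central 50 bases of the Nuf2 region occurred 2 times in the assembly and those of the other 4 regions once.

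Intronic regions were narrow. Their median width was 800 bp (quartiles 600 and 1000 bp), compared with 1200 bp (quartiles 800 and 2200 bp) for exon-touching regions. The smallest width in the list, 600 bp, was that of 45.5% of intronic regions (44.5 to 46.5) and 19.6% of exon-touching regions (19.01 to 20.1), and the median was lower on 19 of 19 autosomes. A wide region has more room to touch an exon, so this order follows in part from how the regions were chosen. The widest inside the limit were 5000 bp in Hs6st1, a heparan sulphate sulfotransferase gene, and in Nutf2, encoding the nuclear import factor of Ran, followed by 4800 bp in Ywhag and Esrrb and 4600 bp in Sulf2. Above the limit there were 15 exon-free regions, the narrowest being 5200 bp in Lrrc8d, Tfdp1 and 2410089E03Rik. The minimum distance from gene starts removed 36 regions, and the nearest member lay 1041 bp from a start.

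Intronic regions lay close to exons. The median distance from the edge of a region to the nearest exon was 895 bp (863 to 922, quartiles 373 and 2108 bp), and 32.5% lay within 500 bp. To describe how near this is for an intron, the 200 bp bins that could have held such a region were used as a background. These were exon-free bins of protein-coding genes, more than 1 kb from gene starts and in runs of at least 3 bins. In the genes with an intronic region, the bins of those regions had a median distance of 1408 bp to the nearest exon, compared with 2310 bp for all 906855 available bins. The order was the same on 19 of 19 autosomes.

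H3K36me3 as a whole declined steadily with distance from exons. It held 38.5% of available bins within 200 bp of an exon (38.1 to 38.8), 15.6% at 1000 to 2000 bp, 3.10% at 5000 to 10000 bp and 0.155% from 50000 bp on (0.111 to 0.215). The exon-touching regions held most of the H3K36me3 bins nearest to exons and, being at most 5000 bp wide, none from 5000 bp on. Since every region was at least 600 bp wide and any that touched an exon was not counted as intronic, the rule itself lowers the share of intronic regions next to exons, and that low share is no finding. They held 2.03% of available bins within 200 bp, 9.29% at 1000 to 2000 bp (9.14 to 9.45) and 1.60% at 10000 to 20000 bp. For the same reason, intronic regions made up 5.27% of H3K36me3 bins within 200 bp of an exon, 59.7% at 1000 to 2000 bp and 94.3% at 5000 to 10000 bp.

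**Figure D1:**
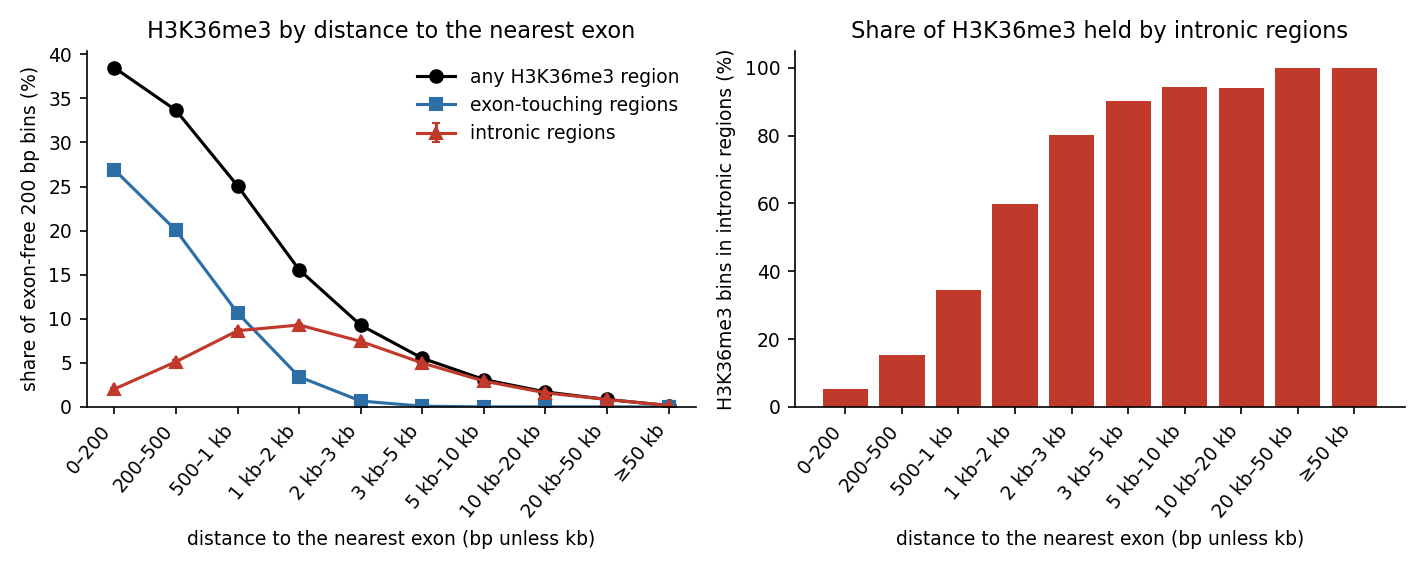
Share of available 200 bp intron bins (left, y axis in percent) in any H3K36me3 region, in exon-touching regions and in intronic regions, and share of H3K36me3 bins held by intronic regions (right, percent), both by distance to the nearest exon (x axis, bp or kb). Error bars on intronic regions are 95% Wilson intervals. H3K36me3 overall fell from 38.5% to 0.155%, and the low share of intronic regions next to exons (2.03% within 200 bp against 9.29% at 1000 to 2000 bp) is built into the rule that they touch no exon.

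A small group of regions lay far from any exon. Beyond 20000 bp there were 115 (1.15%). The farthest are named below with at most 1 region per gene. The farthest was in intron 1 of Mdga2 (chr12:68160001-68160800), 161156 bp from the nearest exon and inside an exon-free interval of 352163 bp, and the next H3K36me3 region was 1918400 bp away. It did not overlap H3K9me3. A region in Gm20388 lay 149365 bp from an exon, but this gene model is 4.43 Mb long and contains 72 other protein-coding genes, so that its intron 1 of 4384418 bp is not a typical intron and its 16 members lay between those genes. The collagen gene Col23a1 held a region 79707 bp from an exon in intron 2, at 55% G+C and with H3K9me3. Lhfp followed at 67787 bp without H3K9me3, Msi2, encoding an RNA-binding protein of the Musashi family, at 62751 bp without it, and Etl4 at 58671 bp with it. Arl15, a small GTPase gene, at 48696 bp and Cdyl2, a chromodomain gene, at 47734 bp both had H3K9me3. Among the longest introns with a member was also intron 5 of the methyltransferase gene Smyd3 (310880 bp), which held a region of 2200 bp with H3K9me3 19629 bp from an exon.

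Within the interval between 2 exons, intronic regions leaned towards the upstream exon. The nearer exon was the downstream one for 43.3% of regions (42.4 to 44.3), compared with 50.5% of available bins (50.4 to 50.6) and 46.6% of the intron bins of exon-touching regions in all genes (46.2 to 46.9). The share was 42.7% for the 3267 regions within 500 bp of an exon (41.0 to 44.4). The median distance was 1577 bp to the upstream exon and 1951.5 bp to the downstream exon. Taken over regions, so that an interval with several counts several times, the median length of the interval was 5144.5 bp and a region covered a median of 16.4% of it. H3K36me3 of any kind held 44.5% of available bins in intervals under 2000 bp, 29.1% at 2000 to 5000 bp and 0.472% from 100000 bp on. Intronic regions held 4.43%, 9.36% and 0.455%, and the low share in the shortest intervals is again set by the rule, since a region there has little room to lie clear of exons. There were 7207 intervals with at least 1 region, 1711 had 2 or more, and 1 interval had 13.

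Along the gene, intronic regions were spread more evenly than H3K36me3 in exon-touching regions. Of their bins, 51.6% lay beyond the midpoint of the gene (51.1 to 52.0), compared with 47.1% of available bins in the same genes (47.0 to 47.2) and 64.4% of the intron bins of exon-touching regions in those genes (64.02 to 64.8). Counted by region centres, 53.1% lay beyond the midpoint, and this exceeded the available bins on 19 of 19 autosomes. With genes divided into 10 equal parts, the intronic regions rose from 2.79% of available bins in part 1 (2.68 to 2.90) to 5.82% in part 7 (5.67 to 5.97), and were 4.68% in part 10 (4.52 to 4.85). Exon-touching regions rose without a break from 1.71% in part 1 to 10.6% in part 10. H3K36me3 of any kind rose from 5.00% of available bins in part 1 to 20.9% in part 9, and was 20.2% in part 10. How far the rule that intronic regions touch no exon shapes their flatter course was not tested.

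**Figure D2:**
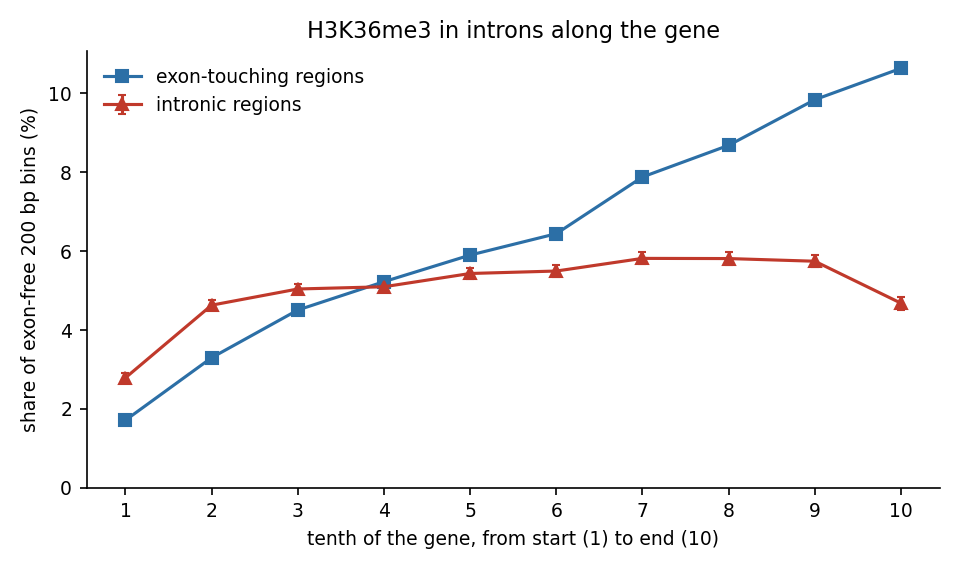
Share of available 200 bp intron bins (y axis, percent) in intronic regions and in exon-touching regions, by part of the gene from start (1) to end (10) on the x axis. Error bars are 95% Wilson intervals. Intronic regions stayed between 4.63% and 5.82% from part 2 to part 10, whereas exon-touching regions rose to 10.6%.

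Intron 1 held fewer regions than its share of the available bins. Introns were numbered in the transcript with the most exons, which placed 9922 of the regions. Of these, 11.8% lay in intron 1 (11.2 to 12.5). By bins the share was 12.6% (12.3 to 12.9), compared with 23.8% of available bins (23.7 to 23.9). Within intron 1, 2.73% of available bins were in an intronic region (2.66 to 2.80), compared with 6.24% in intron 2 (6.11 to 6.38) and 5.84% in later introns (5.78 to 5.91). H3K36me3 of any kind differed more, from 3.69% in intron 1 to 11.8% in intron 2 and 19.5% in later introns. In genes with at least 3 introns, the last intron held 6.97% of regions (6.48 to 7.50) and 5.41% of available bins.

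Most intronic regions lay in genes that also had H3K36me3 over their exons. A region touching an exon of the host gene was present for 94.2% of them (93.7 to 94.6), at a median gap of 1200 bp, and 45.9% had such a region within 1000 bp. The next H3K36me3 region of any kind was at a median of 400 bp, the same as for exon-touching regions. With neighbouring regions within 2000 bp joined before the rule was applied, the number of intronic regions fell from 10040 to 2533. The remaining 582 regions lay in 404 genes without an exon-touching region. They were farther from exons (median 1467.5 against 872 bp) and more often in intron 1 (20.6%, 17.4 to 24.1, against 11.3%, 10.7 to 11.9). Their median gap to the next H3K36me3 region was 12900 bp. This larger gap follows in part from the choice of genes without an exon-touching region. The genes of these 582 regions were longer (median 52.8 against 34.1 kb), and 288 of these genes had a single region. For this count, a region touching an exon of the host gene could have any width and lie at any distance from gene starts. These 404 genes thus had no listed H3K36me3 region over any of their own exons. In Zfp808, which is among these genes, H3K36me3 of any kind held 20% of available bins and intronic regions held 16.4%. The other listed regions there also touched no exon of Zfp808.

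The regions were concentrated in a minority of genes. There were 1628 genes with 1 region and 1491 with 2 to 4, whereas 571 genes with 5 or more held 44.2% of all regions. Genes of 50 to 100 kb held a region most often (33.9%), compared with 2.34% of genes under 10 kb and 15.4% of genes of 200 kb or more. Dnahc8, encoding an axonemal dynein heavy chain (chr17:30761299-31012209), had the most, with 35 regions in 25 of its 92 introns, between 26 and 4981 bp from an exon. Abcc4, encoding an efflux transporter (chr14:118881914-119105441), had 32 regions, 7 of them in intron 1, and a median distance of 2227 bp to an exon. Etl4 and Tns3, the latter encoding the focal adhesion protein tensin 3, had 28 each. The Etl4 regions lay mostly towards the end of the gene, with a median position at 86.9% of its length, and those of Tns3 at 65.2%. Cit, the gene for citron kinase of cytokinesis, had 25 regions, 4933407C03Rik had 22, and B4galt6, encoding a lactosylceramide synthase, had 22.

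Hat1, encoding a histone acetyltransferase, had 21 regions (chr2:71227015-71279679), as many as Sae1 and Smarcc1. The Hat1 regions lay in 3 of 10 introns at positions from 5.67% to 83.9% of the gene, at a median of 200 bp from the next H3K36me3 region of any kind. They held 48.1% of the available bins of the gene, and H3K36me3 of any kind held 63.5%. In B4galt6 the corresponding shares were 40.2% and 50.2%, whereas in the much longer Etl4 they were 4.01% and 6.77%. The genes with the most regions but no exon-touching region were Zfp808, a zinc finger gene with 7 regions, and Osbpl10, Arl15 and Xkr6 with 6 each. In Arl15 and Xkr6 all 6 regions lay in intron 1, with a median distance of 45896 and 32891 bp to an exon. Of the 25 regions in these 4 genes, 23 overlapped H3K9me3, compared with 48.8% of the 582 regions in all genes without an exon-touching region and 11.9% of all intronic regions.

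**Figure D3:**
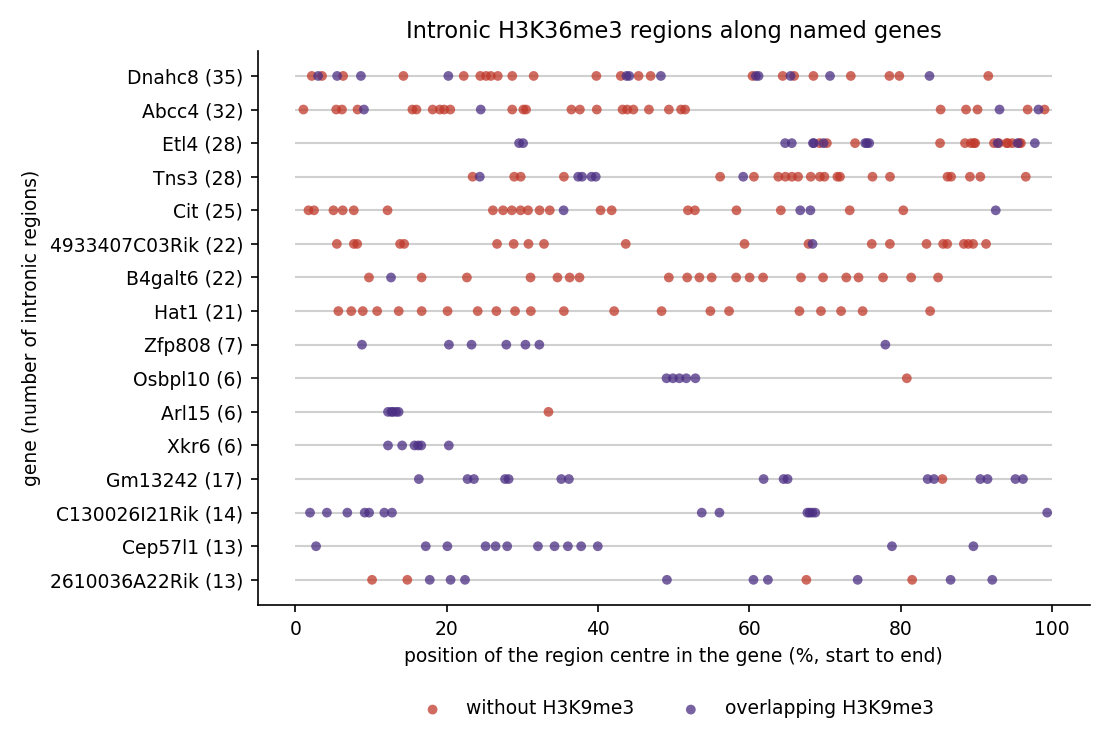
Positions of intronic H3K36me3 region centres along named genes (x axis, percent of gene length from start to end), with 1 row per gene and the number of regions in brackets; colours separate regions with and without an overlapping H3K9me3 region. Hat1 shows 21 regions spread along the gene, all without H3K9me3, whereas all 14 regions of C130026I21Rik and all 13 of Cep57l1 overlap H3K9me3.

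Gene groups with known roles were compared by the number of their members that held an intronic region. Of 24 chromatin remodellers, 18 had at least 1 (75%, 55.1 to 88.0, against 17.2% of all genes), with 112 regions in total. Smarcc1, a core subunit of the BAF complex, had 21 regions in 10 introns between 33 and 4740 bp from an exon, Chd9 had 12, Bptf of the NURF complex had 10 and Smarca5 had 8. Of 26 genes for H3K36 writers, erasers and readers, 14 had a region (53.8%, 35.5 to 71.2). Nsd1, an H3K36 dimethyltransferase, had 18 regions in 11 introns, none of them in intron 1, Kdm4b had 7, Kdm4c had 3 and Setd2 had 4. Of 15 genes for H3K9 methylation and heterochromatin, 9 had a region (interval 35.7 to 80.2%), among them Ehmt1 with 7 and Setdb1 with 5.

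The counts were 16 of 23 for ubiquitin ligases and proteases, with 15 regions in Nedd4 and 8 in Trip12, and 14 of 20 for DNA damage kinases and repair, with 9 in Xrcc5, the gene for Ku80, and 8 in Brca1. For splicing factors they were 13 of 30, with 14 regions in Rbm25. Of 22 listed pluripotency genes, 21 were found under the listed symbol, and 9 of these had a region (42.9%, 24.5 to 63.5). The listed Tfcp2l1 is in the annotation under the symbol Tcfcp2l1. It held intronic regions, which are left out of all values for this list. Esrrb, an orphan nuclear receptor of the pluripotency network, had 16 regions, 9 of them in intron 1, at a median distance of 15074 bp to an exon, and 2 overlapped H3K9me3. The short genes Pou5f1, Sox2, Nanog and Klf4 had 0. These lists hold longer or shorter genes than the average, so regions were also counted per 1000 available bins. This gave 10.4 for remodellers, 6.21 for H3K36 genes, 16.1 for H3K9 genes and 11.3 for pluripotency without Tcfcp2l1. It gave 6.49 for ubiquitin ligases and proteases, 9.12 for DNA damage and repair and 16.8 for splicing. The value for all genes was 2.47.

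Long neuronal genes had few regions for their length. Of 18, 3 had a region (16.7%, 5.84 to 39.2), a share close to the 17.2% of all genes and the 15.4% of genes of 200 kb or more, but there were 0.0390 regions per 1000 available bins against 2.47 for all genes. Magi2, a synaptic scaffold gene, had 3 of the 5 regions. All 5 regions overlapped H3K9me3, and none of the 3 genes had an exon-touching region. Over all intronic regions the overlap with H3K9me3 was 11.9%. In the other lists it was 1 of 112 regions for remodellers (0.893%, 0.158 to 4.88) and 3 of 39 for pluripotency (7.69%, 2.65 to 20.3). The pluripotency value leaves out the regions of Tcfcp2l1, some of which overlapped H3K9me3, and would be higher with them. The overlap was 4 of 75 for ubiquitin ligases and proteases (5.33%, 2.09 to 12.9) and 3 of 61 for DNA damage and repair (4.92%, 1.69 to 13.5). It was 0 of 56 for H3K36 genes, 0 of 34 for H3K9 genes and 0 of 36 for splicing factors, with upper Wilson limits of 6.42%, 10.2% and 9.64%. A limit of 3 counts of the total gives 5.36%, 8.82% and 8.33%.

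An H3K9me3 region overlapped 1192 of the 10040 intronic regions (11.9%, 11.3 to 12.5), compared with 1108 of the 18587 exon-touching regions (5.96%, 5.63 to 6.31). An overlap of 1 bp was enough to count. As the list for each mark pooled WT and G34R cells, an overlap can join regions enriched in different cell types. It does not show both marks in the same cells. With reciprocal overlap of 50% the shares were 4.74% and 2.43%. The rule for intronic regions did not use H3K9me3. The share was higher in each width class, from 9.19% against 3.74% at 600 bp to 29.7% (25.4 to 34.5) against 9.97% (9.14 to 10.9) at 2200 to 5000 bp. It was higher on 19 of 19 autosomes, and ranged from 4.85% on chromosome 19 (2.86 to 8.12) to 20.3% on chromosome 4 (17.6 to 23.4). Of the 1192 regions, 752 (63.1%, 60.3 to 65.8) lay inside a single H3K9me3 region.

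The overlap with H3K9me3 increased with distance from exons. It was 5.82% for intronic regions within 500 bp of an exon (5.06 to 6.67), 10.5% at 1000 to 2000 bp (9.19 to 11.9), 34.2% at 5000 to 20000 bp (31.1 to 37.4) and 62.6% for the 115 regions from 20000 bp on (53.5 to 70.9). Available bins without H3K36me3 in the same genes changed far less. Their share in H3K9me3 was 2.09% within 500 bp (2.00 to 2.17) and 5.25% from 20000 bp on (5.11 to 5.41), whereas the bins of intronic regions rose from 4.28% (3.81 to 4.80) to 59.9% (55.8 to 63.9).

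**Figure D4:**
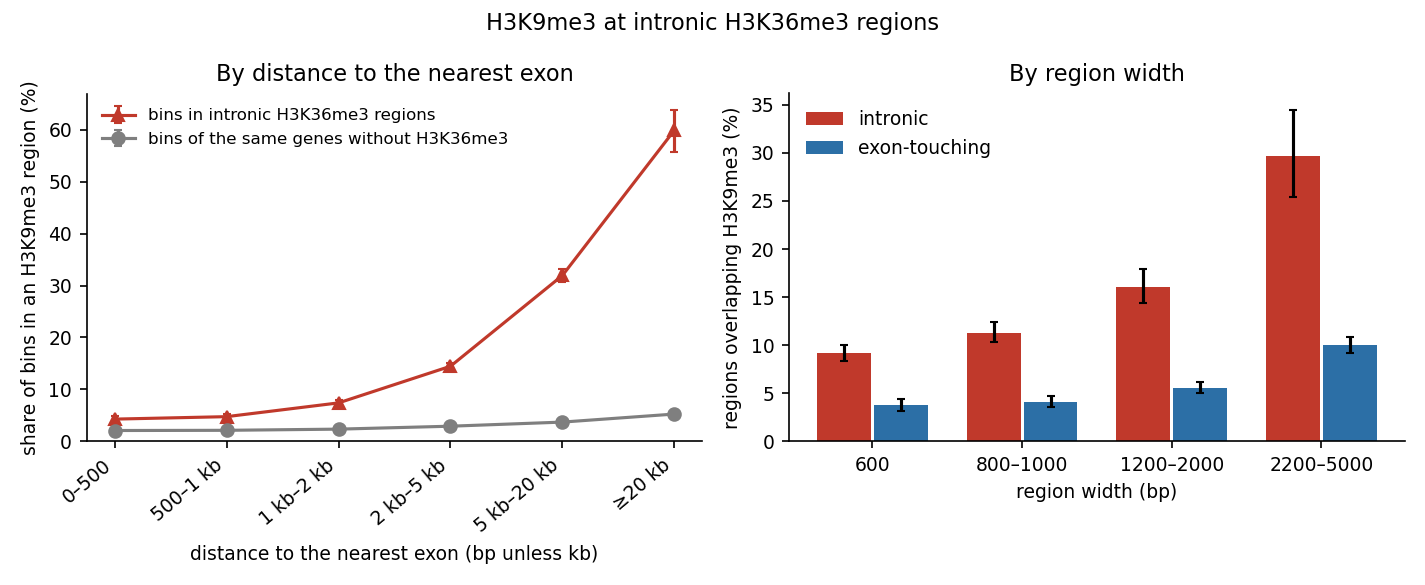
Left, share of 200 bp bins in an H3K9me3 region (y axis, percent) by distance to the nearest exon (x axis, bp or kb), for bins in intronic H3K36me3 regions and for bins of the same genes without H3K36me3. Right, share of intronic and exon-touching H3K36me3 regions that overlap H3K9me3 (y axis, percent) by region width (x axis, bp). Error bars are 95% Wilson intervals. Bins in intronic regions rose from 4.28% to 59.9% with distance, and intronic regions were above exon-touching ones in each width class.

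The overlap with H3K9me3 was also described by intron, by host gene, by gap to the next H3K36me3 region and by G+C. In intron 1, 30.0% of regions overlapped H3K9me3 (27.5 to 32.7), compared with 14.2% in intron 2 (12.6 to 16.03) and 7.84% in later introns (7.24 to 8.49). Within 1000 bp of an exon the share was 21.2% in intron 1 and 5.21% in all other introns together, and at 1000 to 5000 bp it was 24.5% and 11.4%. From 5000 bp on the shares were closer, at 41.5% (36.9 to 46.2) and 32.5% (28.6 to 36.6). In genes without an exon-touching region, 48.8% of regions overlapped H3K9me3 (44.8 to 52.9), compared with 9.60% in genes with one (9.02 to 10.2). From 5000 bp on, these shares were 85.5% (79.1 to 90.2, n = 152) and 28.8% (25.8 to 31.9, n = 834). Regions at least 20000 bp from the next H3K36me3 region overlapped H3K9me3 in 42.3% of cases (37.7 to 47.1), compared with 9.73% of those within 1000 bp. With G+C the share fell from 14.8% under 40% G+C to 9.93% at 50 to 55%, and was 10.0% at 55% or more.

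Intronic regions that overlapped an H3K9me3 region lay in 692 genes, and 462 of them were the only such region of their gene. The genes with the most, chosen after their values were seen, were Gm13242 on chromosome 4 with 16 of its 17 regions, C130026I21Rik on chromosome 1 with 14 of 14, Cep57l1, a centrosomal protein gene, with 13 of 13, Etl4 with 13 of 28, Dnahc8 with 12 of 35 and 2610036A22Rik with 9 of 13. In Cep57l1, 11 of the 13 regions lay in intron 1, at a median distance of 23378 bp to an exon.

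Repeated sequence was more frequent among regions with H3K9me3. The central 50 bases had more than 1 exact copy in the assembly for 11.7% of intronic regions with H3K9me3 (10.0 to 13.7) and 1.57% of those without (1.33 to 1.85). Exon-touching regions had the same order, with 8.03% (6.57 to 9.78) and 1.18% (1.03 to 1.36). Every 5th available bin with H3K9me3 but without H3K36me3 in the same genes was also examined, and 11.2% of these had more than 1 copy (10.3 to 12.1), close to the 11.7% of intronic regions with H3K9me3. Of every 20th available bin, 5.78% had more than 1 copy (5.56 to 5.99). The overlap with H3K9me3 was 10.8% for the intronic regions with a unique centre (10.2 to 11.4) and 5.57% for such exon-touching regions (5.25 to 5.91). Among unique centres it still rose with distance, from 5.15% within 1000 bp of an exon (4.59 to 5.78) to 36.2% from 5000 bp on (33.2 to 39.3). Copies with mismatches were not counted.

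Intronic regions were richer in G+C than bins without H3K36me3 in the introns of the same genes. Their bins had a mean G+C of 45.9% ± 6.81 (SD, n = 46096 bins), compared with 43.5% ± 7.51 for the 776633 available bins of the same genes without H3K36me3 and 45.7% for the intron bins of exon-touching regions in all genes. Intronic regions exceeded the bins without H3K36me3 on 19 of 19 autosomes. Within genes, 1955 of the 2528 genes with at least 5 bins of each kind had higher G+C in the intronic regions than in their other available bins, with a median difference of 1.61 percentage points. The share of available bins in an intronic region rose from 1.84% under 30% G+C (1.69 to 1.99) to 7.56% at 55 to 60% (7.33 to 7.80), and was 5.78% at 60% or more (5.32 to 6.29). CG dinucleotides were at 10.5 per kb against 9.58, and relative to the base content they were nearly the same (observed over expected 0.199 and 0.202).

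The extremes of G+C are given with at most 1 region per gene. The Nuf2 region printed above had 68.8% G+C, and that of Cdkn1a had 66.9% with 82.5 CG per kb. A region of Espn, encoding an actin-bundling protein, had 63.8% with 73.3 CG per kb. These 3 regions all overlapped H3K9me3, but of all 280 regions with 55% G+C or more only 28 did (10.0%, 7.01 to 14.1), compared with 11.9% of all intronic regions. At the other end, Hat1 had a region with 27.3% G+C, and Rictor and Mllt4, the afadin gene, had regions with 28.2%. Of these, only the Mllt4 region, in intron 1 and 20590 bp from an exon, overlapped H3K9me3.

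**Figure D5:**
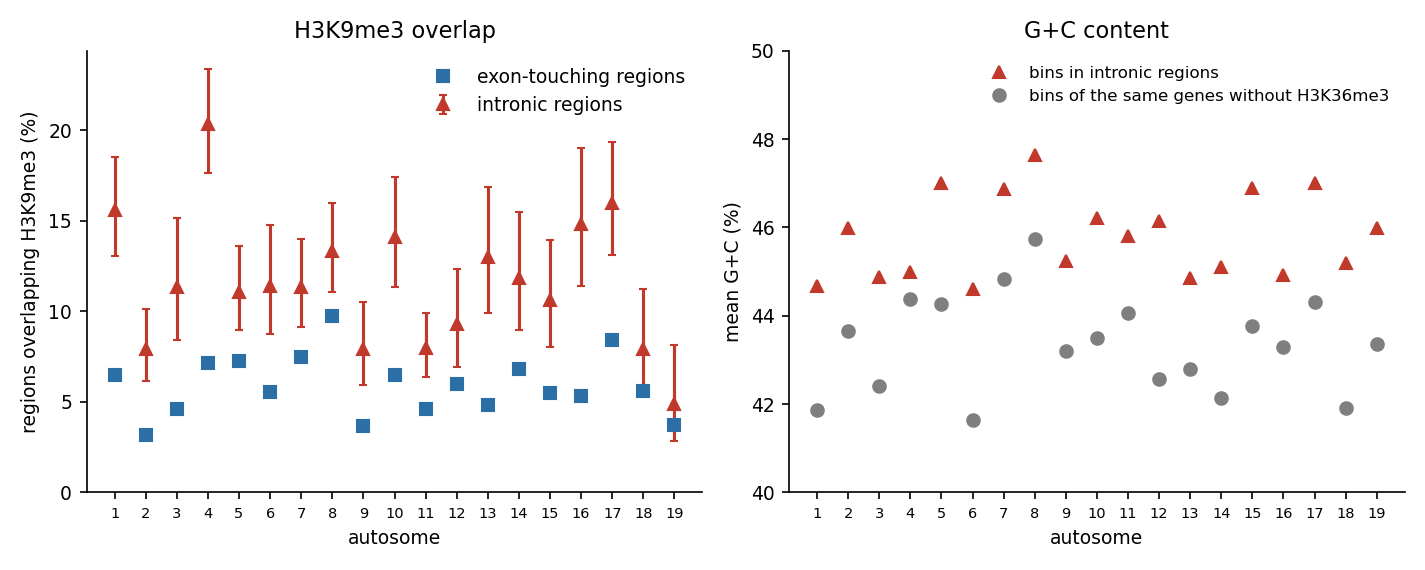
Values per autosome (x axis). Left, share of intronic and exon-touching H3K36me3 regions that overlap H3K9me3 (y axis, percent; error bars, 95% Wilson intervals of intronic regions). Right, mean G+C of bins in intronic regions and of bins of the same genes without H3K36me3 (y axis, percent, starting at 40). Intronic regions were above the comparison on 19 of 19 autosomes in both panels, by the least on chromosome 19 for H3K9me3 and chromosome 4 for G+C.

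The number of intronic regions differed between autosomes from 268 on chromosome 19 to 893 on chromosome 11. Relative to the available bins, chromosome 11 was highest at 3.94 per 1000 bins and chromosome 6 lowest at 1.62. Their share among all regions of at most 5000 bp ranged from 29.1% on chromosome 19 (26.2 to 32.1) to 42.0% on chromosome 18 (38.7 to 45.3), and the median distance to an exon ranged from 673.5 bp on chromosome 3 to 1320 bp on chromosome 8.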

How the data were processed

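ChIP-seq libraries for H3K9me3 and H3K36me3 came from WT and G34R ES cells (4 libraries, 1 per combination). Per the methods, the authors aligned reads to mm9 with Bowtie 1.0.0 under a limit on multiple alignments, removed PCR duplicates, counted reads in 200 bp bins in SeqMonk, matched the distributions of both cell types, kept genic bins above a high percentile in WT or G34R cells and joined neighbouring bins with bedtools 2.20.1. The deposited lists give 3 columns, chromosome, start and end in bp (1-based), per mark, with both cell types pooled. As the percentile fixes how much is listed, the list size does not measure the mark, and limits on multiple alignments lower the yield in repeats. The stated size limit excludes regions above a width, yet the smallest listed width is 600 bp and many are wider.

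Genes, exons and sequence were taken from GENCODE vM1 on NCBIM37. A region was assigned to the protein-coding gene it overlapped most (the smaller on ties), and 306 regions (3.05%) lay in more than 1. Position was the centre along the gene on its strand. Available bins were exon-free 200 bp bins of protein-coding genes, over 1000 bp from gene starts, without unknown bases, in runs of at least 3. H3K9me3 overlap was counted from 1 bp. Copies were exact matches of the central 50 bases on both strands. CG pairs across bin borders were missed. Shares carry 95% Wilson intervals and medians binomial intervals. Python 3.11.15, NumPy 2.4.6, pandas 2.3.3, SciPy 1.17.1 and Matplotlib 3.10.9 were used, and interval, rule and copy functions were tested on simulated data (0 differences from direct counts in 5764 comparisons).

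Members and gene lists were chosen with earlier results of these data known. Named were the 8 genes with the most members, the 8 members farthest from an exon, the 5 members on either side of the width limit, the 3 longest introns with a member, the 4 genes with the most members but no exon-touching region, the 3 members of highest and of lowest G+C, and genes of the 8 lists with at least 3 members, from which the text gives examples. Genes with the most H3K9me3 overlaps and list genes with fewer members were picked once their values were known. Alternatives changed which exons and starts count, the width limits, a margin around exons, the densest genes, merging, the reference point and the overlap rule. A few items that these rules name are not reported here.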

Additional observations from a re-analysis of the deposited data

How the results depend on the processing

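The 7 results were recomputed under alternatives, which gave 64 values. Of these, 44 lay inside the interval of the reported value (for the number of regions, within 1.5 times) and 20 outside. Regions of at least 1 kb numbered 3303, lay a median of 957 bp from an exon, had 49.2% of bins beyond the midpoint, 12.99% in intron 1, 16.1% with H3K9me3, 95.6% with an exon-touching region in the gene and 46.1% G+C. Regions at least 200 bp from any exon lay a median of 1116.5 bp away, had 50.3% of bins beyond the midpoint, 13.3% in intron 1, 12.9% with H3K9me3 and 46.0% G+C. Joining regions within 2000 bp left 2533. Distance from the centre was 1365 bp, and 53.1% of region centres lay beyond the midpoint. H3K9me3 overlap was 4.74% with reciprocal overlap of 50% (2.43% for exon-touching regions) and 14.9% within 1 kb (8.07%). An exon-touching region within 5 kb was present for 73.0%. Alternatives chosen after seeing the data gave an H3K9me3 overlap of 11.2% without chromosome 4 and 10.8% for unique centres. No paired analysis was possible because the lists pool both cell types. Depth is unknown, so the absence of a region from the list does not show the absence of the mark.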

Other observations

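Zinc finger genes, taken as those whose symbol begins with Zfp and a number, held 222 intronic regions in 88 genes. Many of these genes encode KRAB proteins, which direct H3K9me3 to transposable elements, and their own 3′ exons are known to carry both marks. In them 22.1% of intronic regions overlapped H3K9me3 (17.1 to 27.98), compared with 11.6% in other genes (11.02 to 12.3). The exon-touching regions of Zfp genes stood at 15.2% (11.9 to 19.2) and those of other genes at 5.77% (5.45 to 6.12). Zfp808 had 7 intronic regions, all in intron 1 and all with H3K9me3.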
